A study of Mus musculus with 21 samples.

Results

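The elastic fibre genes described here are 10 genes, Eln, Fbn1, Fbn2, Mfap4, Mfap5, Emilin1, Fbln5, Efemp2, Ltbp1 and Ltbp2. They were chosen by name, as the elastin gene, the fibrillins and genes of elastic fibre assembly, and found by their mouse Ensembl IDs among the 52636 genes of the count table. All 10 were present and all 10 passed the filter on low counts, which 16197 genes passed. The libraries were stranded total RNA-seq of mouse lung fibroblasts positive for the surface proteins Ly6C and Sca-1. There were 21 libraries in 7 groups of 3: DMSO (solvent), CHIR, TGFb1, TGFb1 + DMSO, TGFb1 + CHIR, TGFb1 + IL1b and TGFb1 + TNF. TGFb1 is a cytokine that drives fibroblasts towards matrix production, and IL1b and TNF are inflammatory cytokines. CHIR is named in the labels by these letters alone, a name often used for an inhibitor of GSK3, a kinase of the Wnt pathway that targets beta-catenin for destruction. The sources used here do not give mouse strain, age or sex, the doses, the length of treatment or the origin of the replicates (cultures, animals or wells). The p-values therefore measure only the spread between these libraries, which may be technical.

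Elastic fibres give lung its recoil. Their core is elastin, secreted as soluble tropoelastin and crosslinked by lysyl oxidases, and it is laid down on a scaffold of fibrillin microfibrils. Fibulins bring tropoelastin, the crosslinking enzymes and the microfibril together, and latent TGFb-binding proteins tie the fibre to the store of inactive TGFb in the matrix. In lung, myofibroblasts and smooth muscle cells are known as makers of these fibres. The RNA levels below say nothing of fibre deposition.

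Library totals ran from 19796379 to 29276382 counts, and mitochondrial genes took 0.296 to 1.17% of them. The 10 listed fibroblast markers summed to between 23200 CPM (counts relative to the scaled library total) in TGFb1 + TNF and 78100 in TGFb1 + CHIR, almost all of it from the collagens Col1a1, Col1a2 and Col3a1. The sorting markers were present in DMSO, at 142 CPM for Ly6a (Sca-1) and 49.8 CPM for Ly6c1, and they were at 7.83 and 0.703 CPM in TGFb1 + CHIR. In the other groups Ly6a lay between 26.8 CPM (TGFb1 + TNF) and 86.6 CPM (TGFb1), and Ly6c1 between 6.03 and 24 CPM in the same groups. Of the other fibroblast markers, Dpp4 was near 0 in every group. Summed levels of the other lists were 913 to 1900 CPM for 9 smooth muscle and mural genes, 3 to 23.2 for 7 endothelial genes, 9.17 to 27.7 for 5 mesothelial genes, 0.328 to 4.23 for 6 epithelial genes, 1.30 to 2.52 for 6 immune genes and 11.2 to 118 for 4 chondrocyte genes. Ptprc, Cd3e, Adgre1, Krt18, Cldn5 and Acan had 0 counts in all libraries, the mesothelial sum was nearly all Wt1, and the highest endothelial sum was mostly Kdr, at 20.4 CPM in TGFb1 + CHIR. In bulk RNA, fewer cells of a type and less RNA per cell cannot be told apart.

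Levels are given as CPM scaled by TMM factors, and as RPKM, which is CPM divided by exon length in kilobases, where genes are compared with each other. In DMSO, Fbn1 had the highest level of the 10 at 116 ± 2.91 RPKM (mean ± SD, n = 3), followed by Efemp2 at 109 ± 1.67 and Ltbp2 at 65.2 ± 1.68. The lowest were Eln at 1.79 ± 0.0887 RPKM, Mfap4 at 1.49 ± 0.249 and Fbn2 at 0.730 ± 0.0905. The RNA of elastin itself was far below that of its main scaffold protein in these cells. With TGFb1, Fbn1 reached 445 ± 16.3 RPKM and Eln 4.75 ± 0.298 RPKM. The 10 genes together took 0.298 ± 0.00275% of all counts in DMSO, 0.314 ± 0.00477% in CHIR, 0.740 ± 0.0218% in TGFb1, 0.771 ± 0.0196% in TGFb1 + DMSO, 0.410 ± 0.0174% in TGFb1 + CHIR, 0.723 ± 0.0106% in TGFb1 + IL1b and 0.582 ± 0.0196% in TGFb1 + TNF. That share was mostly a measure of Fbn1, which made up 48.3 to 78.5% of it as group means.

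**Figure D1:**
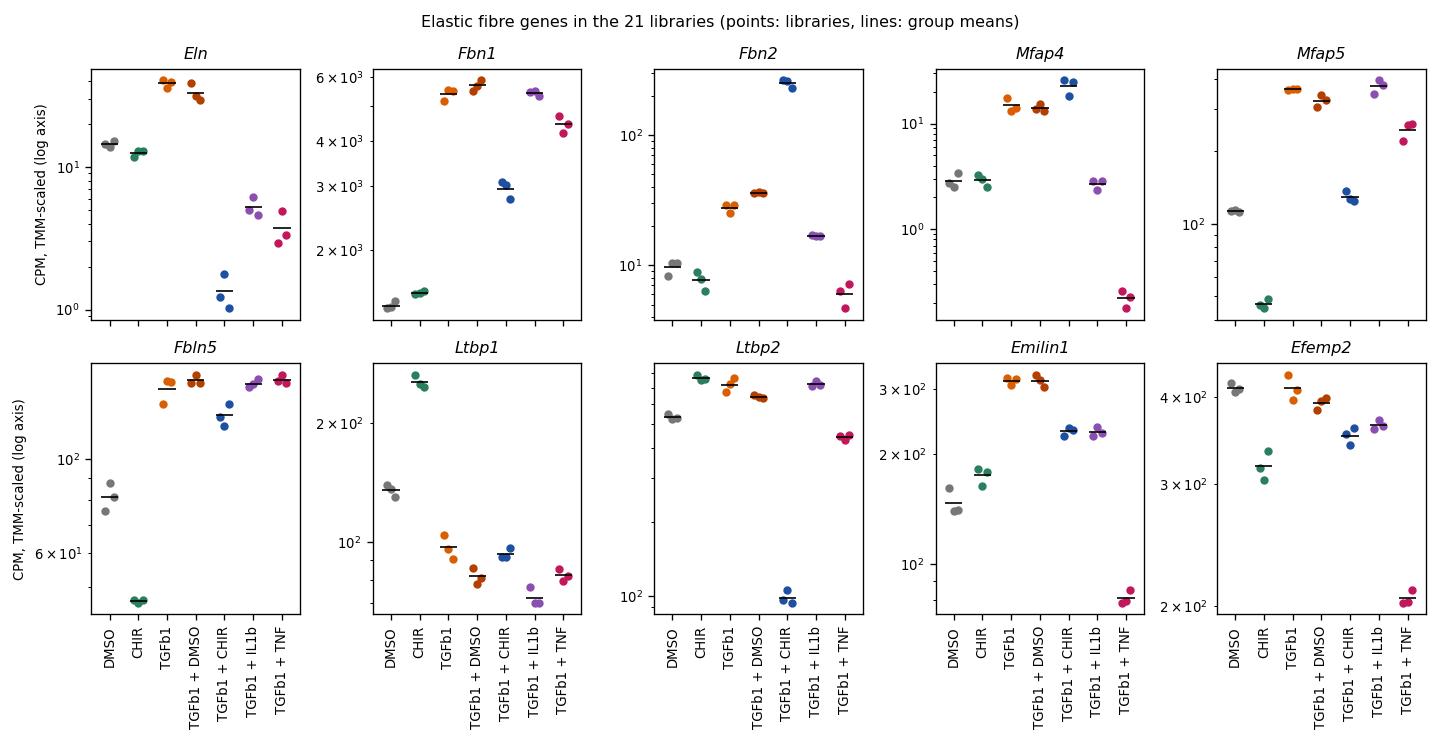
Level of each elastic fibre gene in every library (CPM scaled by TMM factors, log axis, a separate scale for each gene), with 3 points per treatment group and a line at the group mean. Eln and Ltbp2 were lowest in TGFb1 + CHIR, where Fbn2 and Mfap4 were highest, and Mfap4, Fbn2, Emilin1 and Efemp2 were lowest in TGFb1 + TNF.

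**Figure D2:**
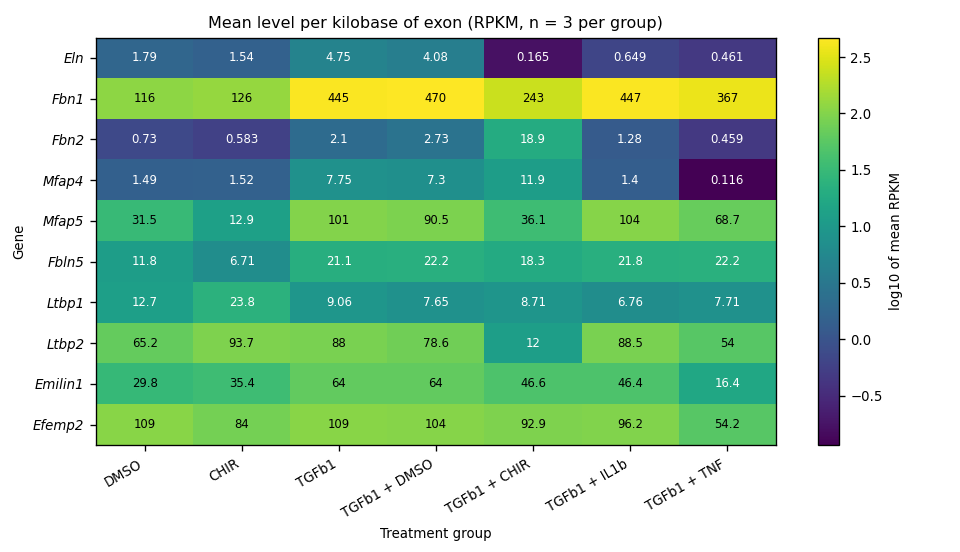
Mean level per kilobase of exon (RPKM, n = 3 per group) of the 10 genes (rows) in the 7 groups (columns), coloured on a log10 scale. Fbn1 held the highest value in every group, from 116 RPKM in DMSO to 470 RPKM in TGFb1 + DMSO.

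The first comparison asked how the 10 genes responded to TGFb1. With TGFb1 + DMSO against DMSO, 8 of the 10 rose, Ltbp1 fell, and Efemp2 did not pass the test (edgeR quasi-likelihood test, Benjamini-Hochberg adjustment over all genes tested, threshold 0.05). In that comparison 62.0% of all genes tested passed, 30.7% as higher and 31.3% as lower. Of the 8, 6 rose at least 2-fold, which 8.07% of all genes tested did. The median log2 fold change of the 10 was 1.15, beside -0.02 over all genes tested.

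Eln (chr5:134702593-134747323, minus strand; gene positions are on GRCm38), the gene of tropoelastin, had 14.4, 13.8 and 15.2 CPM in DMSO and 38.5, 31.3 and 29.4 CPM in TGFb1 + DMSO. All TGFb1 + DMSO libraries were above all DMSO libraries, though they spread more widely among themselves. The log2 fold change was 1.19 ± 0.11 (adjusted p = 7.58e-13); the error of each log2 fold change here is its SE, and that of each level its SD. Among the microfibril genes, Fbn1 (chr2:125300594-125507993, minus strand), the main fibrillin of adult tissue, went from 1378, 1389 and 1444 CPM to 5512, 5689 and 5887 CPM. That was a rise of 2.02 ± 0.04 on the log2 scale (adjusted p = 1.53e-41), with groups far apart and little spread. Fbn2 (chr18:58008623-58210487, minus strand), the fibrillin best known from development, had 8.27, 10.3 and 10.3 CPM in DMSO and 35.8, 36.6 and 36.0 CPM in TGFb1 + DMSO. Its log2 fold change of 1.91 ± 0.098 (adjusted p = 9e-19) came from a base far below that of Fbn1 per length.

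The microfibril-associated genes rose too. Mfap4 (chr11:61485431-61488900, plus strand), whose product binds elastin and fibrillin, had 2.72, 2.49 and 3.41 CPM in DMSO and 13.8, 15.2 and 13.1 CPM in TGFb1 + DMSO. Its log2 fold change of 2.30 ± 0.15 (adjusted p = 6.54e-19) was the highest of the 10 as estimated, with an interval of 1.99 to 2.61 that overlaps that of Fbn1. Mfap5 (chr6:122505845-122529290, plus strand), a microfibril glycoprotein, went from 113, 114 and 112 CPM to 305, 342 and 328 CPM, a log2 fold change of 1.52 ± 0.053. Emilin1 (chr5:30913402-30921277, plus strand), a glycoprotein at the boundary of elastin and microfibril, went from 161.0, 139.7 and 140.4 CPM to 328, 317 and 303 CPM. Its log2 fold change was 1.10 ± 0.048, and no library of one group reached the range of the other for either gene.

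The assembly fibulins parted. Fbln5 (chr12:101746565-101819055, minus strand), which binds tropoelastin and lysyl oxidase-like enzymes, had 75.6, 87.7 and 81.6 CPM in DMSO and 151.2, 157.3 and 150.8 CPM in TGFb1 + DMSO, a rise of 0.91 ± 0.052 on the log2 scale. Efemp2 (chr19:5473954-5482517, plus strand), the fibulin that brings lysyl oxidase to tropoelastin, had 419, 406 and 411 CPM in DMSO and 383, 395 and 398 CPM in TGFb1 + DMSO. The libraries did not overlap, but the difference was small: -0.07 on the log2 scale with a 95% interval of -0.15 to 0.01 (adjusted p = 0.118). It passed the threshold under 3 of the alternatives, with a log2 fold change of -0.09 in each.

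The latent TGFb-binding proteins moved in opposite directions. Ltbp1 (chr17:75005568-75392512, plus strand), which holds latent TGFb in the matrix, had 139.5, 136.2 and 130.0 CPM in DMSO and 85.8, 78.3 and 81.1 CPM in TGFb1 + DMSO. It fell by 0.73 on the log2 scale (SE 0.052, adjusted p = 7.7e-18), with groups well apart. Ltbp2 (chr12:84783212-84876532, minus strand), a microfibril-binding member of the family that does not bind latent TGFb, went from 549.6, 524.6 and 527.2 CPM to 653.5, 639.8 and 635.6 CPM, a small rise of 0.27 ± 0.042.

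TGFb1 without DMSO, set against the same DMSO libraries, gave 8 higher, 1 lower and 1 not passed among the 10, where 63.5% of all genes tested passed, 31.0% as higher and 32.5% as lower. The log2 fold changes were 1.41 ± 0.11 for Eln, 1.94 ± 0.039 for Fbn1, 2.38 ± 0.15 for Mfap4 and -0.48 ± 0.051 for Ltbp1. For Efemp2 the estimate was 0.00, with an interval of -0.08 to 0.08. Because the DMSO libraries serve both comparisons, the second is not independent of the first.

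The wider gene lists of the pathway split. Of 21 tested genes of other microfibril and elastic fibre proteins (23 listed), 10 rose and 10 fell with TGFb1 + DMSO against DMSO, a median log2 fold change of 0.04. The 3 named by their size of change all fell, with log2 fold changes of -5.28 ± 0.06 for the fibulin Fbln7, -4.93 ± 0.054 for Efemp1, a fibulin of the same subfamily as Efemp2, and -4.31 ± 0.14 for Adamtsl4, a fibrillin-binding protein. Efemp1 went from 1372 ± 31.2 CPM in DMSO to 44.9 ± 1.19 CPM (n = 3 each). The fibulin family held genes that rose, such as Fbln5, and genes that fell, such as Efemp1. Of the 5 lysyl oxidases, which crosslink elastin and collagen, 4 rose, led by Loxl2 at 2.16 ± 0.039, Loxl3 at 1.42 ± 0.056 and Lox at 1.04 ± 0.053. The 1 that fell was Loxl1, with a log2 fold change of -0.25 ± 0.042, from 743 ± 41.9 to 626 ± 22.7 CPM. Lox was among the abundant transcripts, at 1966 ± 64.2 CPM in DMSO and 4037 ± 204 CPM in TGFb1 + DMSO.

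Of 11 tested genes of TGFb ligands and of proteins that hold or activate latent TGFb (12 listed), 8 rose and 2 fell, and the 2 became 1 under the stricter filter. Itgb3, an integrin subunit that can take part in activation, rose by 2.34 ± 0.068 on the log2 scale, and Tgfb1 RNA rose by 1.47 ± 0.047. Thbs1, thrombospondin 1, an activator of latent TGFb, fell by 1.26, and the other gene that fell, Itgb8, was at 0.505 CPM in DMSO and 0.0341 CPM in TGFb1 + DMSO. Of 15 tested genes of proteases and protease inhibitors (20 listed), 5 rose and 7 fell. The inhibitors Timp1 and Timp3 rose by 2.63 ± 0.047 and 2.36 ± 0.091, and the protease Adamts5 fell by 3.33. The inhibitors Timp2, Cst3 and Serpine2 went the other way, with log2 fold changes of -1.37 ± 0.038, -1.53 ± 0.048 and -1.98 ± 0.057. Among the other proteases, Mmp2 and Ctsk rose by 0.15 ± 0.037 and 0.34 ± 0.053, and Mmp12 went from 0.0563 to 2.33 CPM. Mmp14, Ctsb and Cela1 fell. In the same comparison the summed smooth muscle and mural markers went from 1290 ± 48.7 to 1700 ± 47.9 CPM, with Actg2 (139 to 391 CPM), Cnn1 (46.6 to 142) and Cspg4 (7.48 to 99.5) higher and Lmod1 (75.2 to 28.8) and Notch3 (59.7 to 40.0) lower, while Pdgfrb, the bulk of the sum, was at 954 and 993 CPM. Myh11 and Des were under 2 CPM in both groups. The fibroblast sum went from 36100 ± 68.5 to 59600 ± 1410 CPM, with Col1a1, Col1a2, Col3a1 and Pi16 (1.9 to 9.09 CPM) higher. Pdgfra (1480 to 444 CPM), Dcn (2010 to 206), Lum (9.24 to 0.549), Ly6a (142 to 66.6) and Ly6c1 (49.8 to 16.3) were lower. The part of these lists in the rise of the elastic fibre genes was not tested.

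The next comparison asked what CHIR did without TGFb1. With CHIR against DMSO, 4 of the 10 rose, 4 fell and 2 did not pass, where 44.8% of all genes tested passed, 22.1% as higher and 22.7% as lower. The median log2 fold change was -0.08, and 1 member fell at least 2-fold, which 6.09% of all genes tested did. That member was Mfap5, at 45.8, 44.5 and 48.8 CPM in CHIR, below every DMSO library by a wide gap. It fell by 1.29 on the log2 scale (SE 0.058, adjusted p = 1.64e-22).

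Fbln5 fell with it, to 46.6, 45.9 and 46.6 CPM, a log2 fold change of -0.82 ± 0.055, and Efemp2 fell to 316, 304 and 334 CPM, a log2 fold change of -0.37 ± 0.04. Both latent TGFb-binding genes rose. Ltbp1 reached 265, 251 and 246 CPM in CHIR, its highest level in any group, with a log2 fold change of 0.91 ± 0.05. Ltbp2 reached 790, 752 and 758 CPM, also its highest level, with a log2 fold change of 0.52 ± 0.042. Emilin1 and Fbn1 rose by 0.25 ± 0.048 and 0.12 ± 0.038 on the log2 scale. The Fbn1 call was lost without DMSO replicate 1 (0.10, adjusted p = 0.051).

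Fbn2 fell by 0.31 on the log2 scale (adjusted p = 0.0338), from 8.27, 10.3 and 10.3 CPM in DMSO to 8.87, 7.91 and 6.33 CPM, and the libraries overlapped. That call was lost when any 1 of 4 libraries was left out: CHIR replicate 2 (-0.32, adjusted p = 0.0697), CHIR replicate 3 (-0.20, 0.192), DMSO replicate 2 (-0.25, 0.141) or DMSO replicate 3 (-0.26, 0.126). It was also lost when the compared groups alone were fitted (-0.32, 0.0543) and with limma voom (-0.30, 0.105). Eln had 11.7, 12.9 and 12.8 CPM in CHIR, a log2 difference of -0.21 from DMSO with an interval of -0.46 to 0.03 (adjusted p = 0.156). Mfap4 had 3.24, 3.004 and 2.53 CPM, a difference of 0.05 with an interval of -0.32 to 0.41. Neither passed the test, and Mfap4 libraries overlapped while those of Eln did not.

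CHIR added to TGFb1 was then set against TGFb1 + DMSO. Here 3 of the 10 rose and 7 fell, where 43.3% of all genes tested passed, 20.8% as higher and 22.5% as lower. The 10 did not move as a block: Eln and Ltbp2 fell steeply, Mfap5 and Fbn1 fell by less, Fbn2 rose steeply and Mfap4 modestly. The median log2 fold change of the 10 was -0.37, beside 0 over all genes tested. At least 2-fold changes were 1 higher and 3 lower, and 3.96% and 5.83% of all genes tested changed that far.

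Eln had 1.22, 1.78 and 1.02 CPM in TGFb1 + CHIR. Each was below the lowest library of every other group, and far below the 38.5, 31.3 and 29.4 CPM of TGFb1 + DMSO. The log2 fold change was -4.63 ± 0.16 (adjusted p = 7.58e-28), 24.7-fold lower. Ltbp2 had 96.6, 105 and 93.6 CPM, against 653.5, 639.8 and 635.6 CPM, a log2 fold change of -2.71 ± 0.046 (adjusted p = 3.03e-43), 6.53-fold lower. The means of Ltbp2 in the other 6 groups lay between 442 and 766 CPM. Fbn2 had 263, 257 and 229 CPM, its highest level in any group, against 35.8, 36.6 and 36.0 CPM, a log2 fold change of 2.79 ± 0.083 (adjusted p = 2.66e-25), 6.92-fold higher. The ratio of the fibrillins changed with it: Fbn2 stood at 18.9 ± 1.37 RPKM beside Fbn1 at 243 ± 13.8 RPKM in TGFb1 + CHIR, and at 2.73 ± 0.0319 RPKM beside 470 ± 15.5 RPKM in TGFb1 + DMSO.

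Fbn1 itself fell from 5512, 5689 and 5887 CPM to 3073, 3021 and 2762 CPM, a log2 fold change of -0.95 ± 0.038. It remained above both groups without TGFb1. Mfap5 fell by 1.33 on the log2 scale (SE 0.053), to 137, 127 and 125 CPM, just above every DMSO library. Mfap4 rose to 25.7, 18.1 and 24.7 CPM, its highest level in any group, by 0.70 ± 0.13 (adjusted p = 7.74e-06). Emilin1, Fbln5 and Efemp2 fell too, with log2 fold changes of -0.46 ± 0.047, -0.27 ± 0.051 and -0.16 ± 0.04. Ltbp1 rose by 0.19 ± 0.053 (adjusted p = 0.00271), and against the TGFb1 libraries instead its difference was -0.06, with an adjusted p of 0.384.

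**Figure D3:**
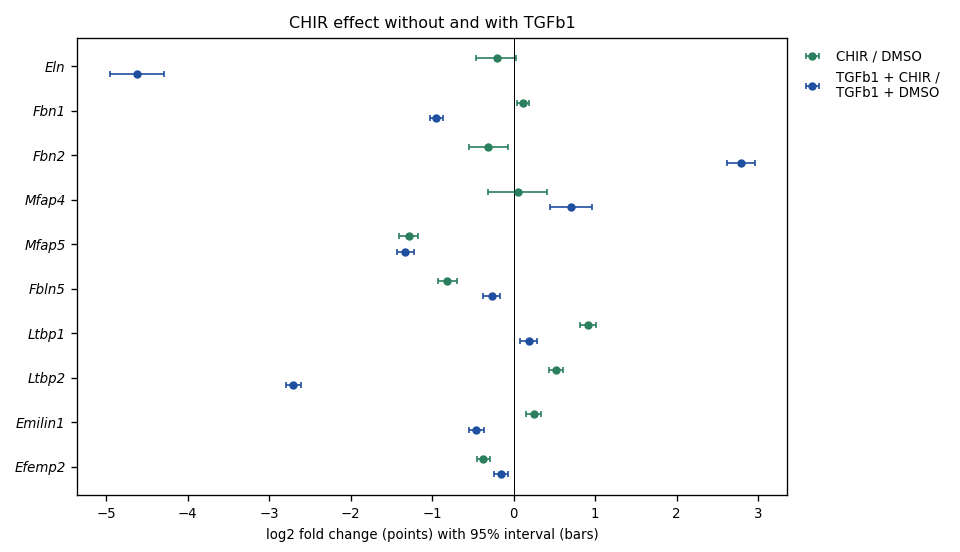
log2 fold change of each gene (points) with its 95% interval (bars) for CHIR against DMSO and for TGFb1 + CHIR against TGFb1 + DMSO. Eln (-0.21 and -4.63), Ltbp2 (0.52 and -2.71) and Fbn2 (-0.31 and 2.79) had the widest distance between the points, and the points of Mfap5 (-1.29 and -1.33) lay together.

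Whether CHIR acted differently with TGFb1 was tested as an interaction over the 4 groups concerned. The CHIR effect differed for 9 of the 10 genes, where 41.2% of all genes tested passed, 20.3% of all with a negative difference. The difference, the effect with TGFb1 minus the effect without, was -4.41 ± 0.21 on the log2 scale for Eln (adjusted p = 1.52e-22), -3.23 ± 0.062 for Ltbp2 and 3.10 ± 0.14 for Fbn2. For Ltbp2, Fbn1 and Emilin1, CHIR raised the level without TGFb1 and lowered it with TGFb1. For Fbn2 the estimates had the reverse signs, -0.31 without TGFb1 and 2.79 with it. The call without TGFb1 was lost under several alternatives, so a fall of Fbn2 with CHIR alone is not settled. The difference was smaller for Fbn1 (-1.06 ± 0.054), Ltbp1 (-0.72 ± 0.072), Emilin1 (-0.71 ± 0.068), Fbln5 (0.54 ± 0.075) and Efemp2 (0.22 ± 0.057). Mfap4 passed at 0.66 ± 0.22 (adjusted p = 0.014), and that call was lost without DMSO replicate 3 (0.52, adjusted p = 0.0758) or TGFb1 + CHIR replicate 1 (0.56, 0.0533). For Mfap5 the difference was -0.04, with an interval of -0.19 to 0.12 (adjusted p = 0.752).

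The same libraries can be read as the TGFb1 effect in the presence of CHIR, which shares its interaction with the values above. With TGFb1 + CHIR against CHIR, 7 of the 10 rose and 3 fell, where 66.2% of all genes tested passed, 33.8% as higher and 32.3% as lower. Eln, which rose 2.28-fold with TGFb1 in DMSO, was 9.33-fold lower with TGFb1 in CHIR, a log2 fold change of -3.22 ± 0.18. Ltbp2, which rose 1.20-fold in DMSO, was 7.78-fold lower (-2.96 ± 0.046). Fbn2 rose 32.1-fold (5.01 ± 0.1), and Mfap4, Mfap5, Fbln5 and Fbn1 rose by 2.95 ± 0.15, 1.49 ± 0.058, 1.45 ± 0.055 and 0.96 ± 0.038 on the log2 scale. Ltbp1 fell by 1.45 on the log2 scale (SE 0.052). Emilin1 and Efemp2 rose by 0.40 ± 0.048 and 0.15 ± 0.041.

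**Figure D4:**
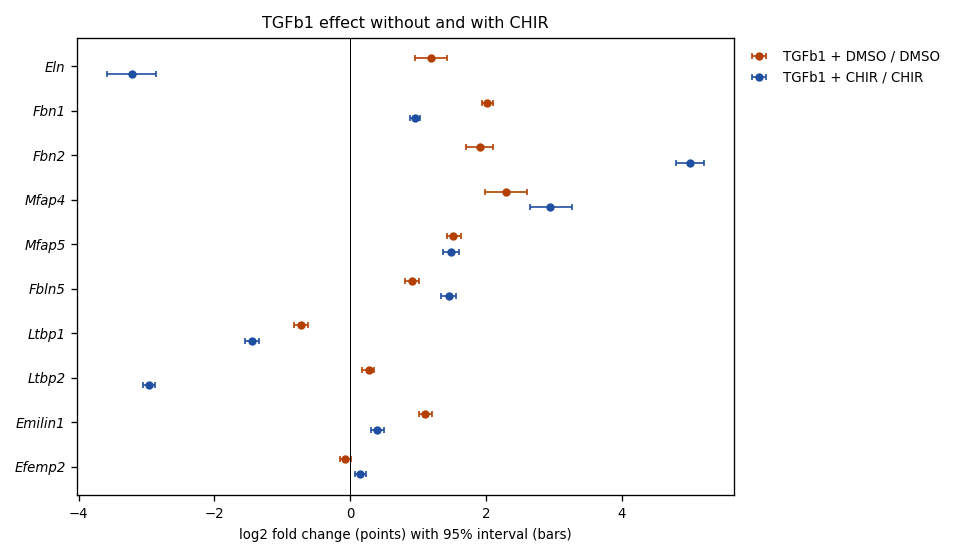
log2 fold change of each gene (points) with its 95% interval (bars) for TGFb1 + DMSO against DMSO and for TGFb1 + CHIR against CHIR. Eln (1.19 and -3.22) and Ltbp2 (0.27 and -2.96) lay on opposite sides of 0, and Mfap5 (1.52 and 1.49) had nearly the same value in both.

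Among the wider lists, all 5 lysyl oxidases fell with CHIR added to TGFb1, with Lox at -1.63 ± 0.054, from 4037 ± 204 to 1303 ± 42.6 CPM. Loxl1, the family member tied most closely to elastin, had a log2 fold change of -0.83 ± 0.042 and Loxl3 one of -0.78 ± 0.055. Of the 21 tested microfibril and elastic fibre associated genes, 2 rose and 11 fell, and the 2 became 4 when the compared groups alone were fitted. Efemp1 had a log2 fold change of -2.99 ± 0.074 and Dcn, the small proteoglycan decorin, one of -1.16 ± 0.043, while Fbln7 rose by 1.96 ± 0.065. Of the 15 proteases and inhibitors, 9 rose and 3 fell. The cathepsins Ctsl and Ctsk, which can cut elastin, rose by 1.52 ± 0.038 and 1.27 ± 0.052, and Mmp9 fell by 1.62, from 6.92 ± 0.293 to 2.24 ± 0.267 CPM. The inhibitors Timp2, Serpine2 and Cst3 also rose, by 1.07 ± 0.038, 0.53 ± 0.059 and 0.28 ± 0.048. The inhibitor Timp1 and the protease Adamts5 fell, at -0.52 ± 0.043 and -1.04 ± 0.065, and Timp3 did not pass. Of the 11 TGFb ligand and activation genes, 1 rose and 6 fell, and the 1 that rose was Tgfb2 at 1.67 ± 0.058.

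Several marker sums moved with CHIR and TGFb1 together. Between TGFb1 + DMSO and TGFb1 + CHIR the smooth muscle and mural sum went from 1700 ± 47.9 to 1360 ± 28.3 CPM, the fibroblast sum from 59600 ± 1410 to 78100 ± 4220 CPM, the endothelial sum from 5.75 ± 0.923 to 23.2 ± 1.02 CPM and the chondrocyte sum from 34.4 ± 0.751 to 11.2 ± 1.94 CPM. Their part in the results for Eln, Ltbp2 and Fbn2 was not tested. In the smooth muscle and mural list Pdgfrb (993 to 846 CPM), Actg2 (391 to 288), Cspg4 (99.5 to 18.8) and Lmod1 (28.8 to 18.3) were lower. Cnn1 was at 142 and 140 CPM, and Notch3 at 40 and 44.9 CPM. In the fibroblast list the rise was in the collagens Col1a1, Col1a2 and Col3a1, with smaller rises in Pdgfra (444 to 513 CPM) and Lum (0.549 to 1.15). Dcn (206 to 91.8 CPM), Ly6a (66.6 to 7.83), Ly6c1 (16.3 to 0.703) and Pi16 (9.09 to 0.73) were lower. In the endothelial list Kdr went from 4.19 to 20.4 CPM and Vwf from 0.591 to 2.46 CPM, and Cldn5, Tie1, Emcn, Pecam1 and Cdh5 were under 1 CPM in both groups.

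IL1b and TNF were each added to TGFb1 and set against the TGFb1 libraries, which both comparisons share. With IL1b, 6 of the 10 fell and 4 did not pass, where 34.6% of all genes tested passed, 17.2% as higher and 17.4% as lower. With TNF, 9 fell and 1 did not pass, where 56.6% of all genes tested passed, 27.7% as higher and 28.8% as lower. The count of members that rose was 0 in both by edgeR, and also at an unadjusted p under 0.05, by limma voom and by DESeq2. At least 2-fold decreases numbered 2 with IL1b and 5 with TNF, and 1.90% and 9.51% of all genes tested fell that far. Median log2 fold changes of the 10 were -0.30 and -0.86, beside 0 over all genes tested in each.

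Eln had 40.5, 35.8 and 39.1 CPM in TGFb1, 4.97, 6.16 and 4.64 CPM in TGFb1 + IL1b, and 2.94, 4.95 and 3.31 CPM in TGFb1 + TNF. Both cytokine groups lay far below TGFb1 and also below DMSO. The log2 fold changes were -2.87 ± 0.13 with IL1b (adjusted p = 1.43e-23) and -3.36 ± 0.13 with TNF (adjusted p = 2.53e-26), 7.30-fold and 10.2-fold lower. Mfap4 had 17.3, 13.2 and 14.2 CPM in TGFb1, 2.87, 2.34 and 2.84 CPM in TGFb1 + IL1b, and 0.260, 0.178 and 0.228 CPM in TGFb1 + TNF. The libraries with IL1b overlapped those of DMSO and CHIR, and the level with TNF was the lowest of any member in any group, resting on 7, 5 and 6 counts. The log2 fold changes were -2.47 ± 0.15 with IL1b (adjusted p = 5.42e-19) and -6.04 ± 0.24 with TNF (adjusted p = 3.55e-28).

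Fbn2 and Emilin1 fell with both. Fbn2 had 29.1, 25.0 and 29.1 CPM in TGFb1, 17.0, 16.7 and 16.8 CPM with IL1b, and 6.32, 4.66 and 7.23 CPM with TNF, log2 fold changes of -0.71 ± 0.094 and -2.19 ± 0.11. Emilin1 had 321, 308 and 319 CPM in TGFb1, 224, 237 and 227 CPM with IL1b, and 78.4, 79.6 and 85.2 CPM with TNF, log2 fold changes of -0.46 ± 0.047 and -1.96 ± 0.05. For both genes the 3 groups stood apart in the same order, and every TNF library was below every DMSO library.

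Fbn1 was at a log2 difference of 0.01 with IL1b (interval -0.07 to 0.08) and fell by 0.28 with TNF (SE 0.038). Mfap5 was at 0.04 with IL1b (interval -0.06 to 0.14) and fell by 0.56 with TNF (SE 0.052). Ltbp2 was at 0.01 with IL1b (interval -0.08 to 0.09) and fell by 0.70 with TNF (SE 0.042). Efemp2, which did not pass with TGFb1 alone, had log2 fold changes of -0.18 ± 0.04 with IL1b and -1.01 ± 0.041 with TNF, where it stood at 202, 203 and 211 CPM, its lowest level in any group. Fbln5 passed with neither, at 0.04 (interval -0.06 to 0.14) and 0.07 (interval -0.03 to 0.17). Ltbp1 had log2 fold changes of -0.43 ± 0.053 with IL1b and -0.24 ± 0.052 with TNF. Against TGFb1 + DMSO instead, the TNF difference of Ltbp1 was 0.01 (adjusted p = 0.87), and Mfap5 and Ltbp2 passed as higher with IL1b, at 0.20 and 0.17.

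**Figure D5:**
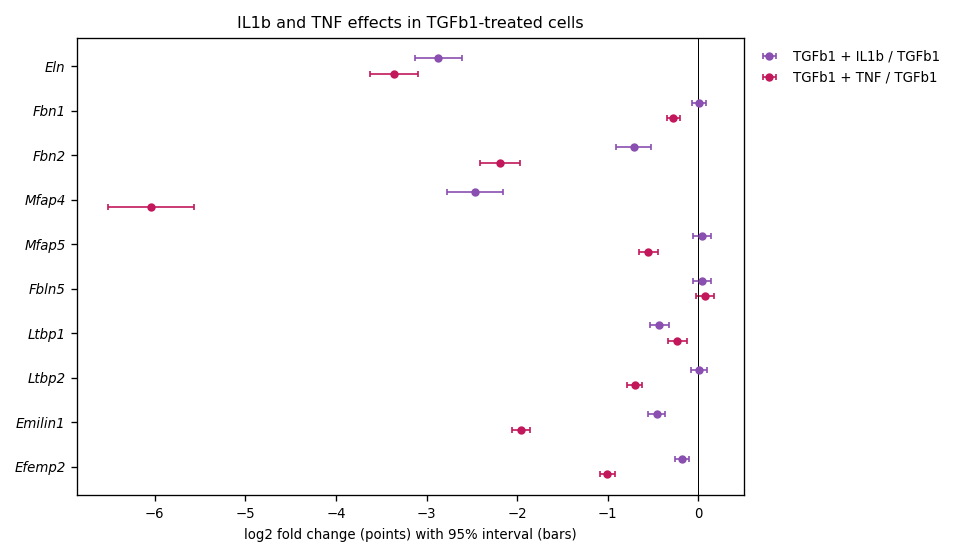
log2 fold change of each gene (points) with its 95% interval (bars) for TGFb1 + IL1b and TGFb1 + TNF, each against the shared TGFb1 libraries. Mfap4 (-2.47 and -6.04) and Eln (-2.87 and -3.36) had the most negative values, and Fbln5 (0.04 and 0.07) stayed next to 0 in both.

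TGFb1 + IL1b was compared with TGFb1 + TNF directly. Of the 10, 8 were higher with IL1b, Ltbp1 was lower and Fbln5 did not pass, where 47.6% of all genes tested passed, 24.7% as higher and 22.8% as lower. The difference was 3.57 ± 0.3 on the log2 scale for Mfap4, 1.5 ± 0.05 for Emilin1, 1.48 ± 0.11 for Fbn2 and 0.83 ± 0.041 for Efemp2. Ltbp2, Mfap5 and Fbn1 differed by 0.71 ± 0.042, 0.60 ± 0.051 and 0.28 ± 0.038, and Ltbp1 by -0.19 ± 0.053. Eln differed by 0.49 ± 0.16 (adjusted p = 0.008), but its libraries overlapped. That call was lost without TGFb1 + IL1b replicate 2 (0.36, adjusted p = 0.0899), TGFb1 + TNF replicate 1 (0.34, 0.0892) or TGFb1 + TNF replicate 3 (0.41, 0.0526).

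Of the wider lists, 15 of the 21 microfibril and elastic fibre associated genes fell with TNF and 3 rose. Fbln7 and Efemp1 had log2 fold changes of -2.97 ± 0.11 and -1.5 ± 0.06, and Dcn rose by 1.25 ± 0.041. With IL1b, 6 rose and 9 fell, and the 9 became 4 without TGFb1 + IL1b replicate 1 and 5 against TGFb1 + DMSO. Of the 5 lysyl oxidases, 4 fell with TNF, including Loxl1 (-1.19 ± 0.042) and Lox (-0.98 ± 0.053), and 3 fell with IL1b. Against TGFb1 + DMSO, 1 of the 5 fell and 2 rose with IL1b. Among 11 TGFb ligand and activation genes, 5 fell and 4 rose with TNF. Thbs1, Lrrc32, which docks latent TGFb on the cell surface, and Tgfb2 had log2 fold changes of -2.01, -1.85 and -1.56. With IL1b, 7 of the 11 fell, including Thbs1 (-1.29 ± 0.041) and Tgfb3 (-1.08 ± 0.048).

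Among the 15 proteases and inhibitors, 10 fell and 4 rose with TNF, and 5 fell and 4 rose with IL1b. Mmp9, a gelatinase that also cuts elastin, went from 8.38 ± 1.20 CPM in TGFb1 to 27.8 ± 3.11 CPM with IL1b and 383 ± 24.3 CPM with TNF, log2 fold changes of 1.75 ± 0.089 and 5.53 ± 0.084. Timp1 rose with both, by 1.18 ± 0.043 with IL1b and 1.44 ± 0.043 with TNF. Among the other inhibitors, Serpine2 and Slpi also rose with both, while Timp2, Timp3 and Cst3 fell with both. With TNF, Adamts5 and Cela1, a pancreatic-type elastase, had log2 fold changes of -2.25 ± 0.069 and -1.78 ± 0.12. The smooth muscle and mural sum was 1900 ± 17.4 CPM in TGFb1, 1360 ± 16.8 CPM with IL1b and 913 ± 5.81 CPM with TNF, and the fibroblast sum was 62800 ± 1270, 59200 ± 855 and 23200 ± 543 CPM. Most of the fall in the smooth muscle and mural sum was Pdgfrb, at 970 CPM in TGFb1, 510 with IL1b and 236 with TNF. Cnn1 was at 209, 142 and 51.5 CPM, Actg2 at 518, 501 and 339, and Cspg4 went the other way, at 113, 149 and 273 CPM. In the fibroblast list with TNF, Col1a1 went from 27700 to 11300 CPM, Col1a2 from 17900 to 7050 and Col3a1 from 16500 to 4240. Pdgfra (424 to 76.8 CPM), Ly6a (86.6 to 26.8) and Pi16 (10.1 to 6.92) were lower too, while Dcn was higher (224 to 533). The chondrocyte sum was 118 ± 6.45 CPM with TNF, nearly all Sox9, with Acan at 0. The endothelial sum was 4.56 ± 0.789 CPM in TGFb1 and 12.9 ± 0.612 CPM with TNF, where Cdh5 stood at 4.54 CPM, Kdr at 6.32 and Vwf at 1.81, beside 0.265, 3.18 and 0.527 CPM in TGFb1. The rest of that list did not rise: Pecam1 went from 0.547 to 0.16 CPM with TNF and Emcn from 0.0357 to 0.0248. Tie1 and Cldn5 had 0 counts in both groups. The part of these in the fall of the elastic fibre genes was not tested.

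The solvent was compared within TGFb1. With TGFb1 + DMSO against TGFb1, Fbn2 was higher by 0.39 ± 0.088 on the log2 scale (adjusted p = 0.00481), Ltbp1 and Ltbp2 were lower, at -0.25 ± 0.052 and -0.16 ± 0.042, and the other 7 did not pass, where 6.13% of all genes tested passed, 2.33% as higher and 3.80% as lower. Mfap5 was at -0.16, with an adjusted p of 0.0557, and it passed as lower under 8 of the alternatives, at -0.15 to -0.20 with adjusted p from 0.024 to 0.0393. The Ltbp2 call was lost without TGFb1 replicate 3 (-0.12, adjusted p = 0.124).

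Over the 7 groups the highest mean was 103 times the lowest for Mfap4, 41.2 times for Fbn2 and 28.7 times for Eln, and 8.05 times for Mfap5 and 7.78 times for Ltbp2. It was 4.06 times for Fbn1, 3.90 for Emilin1, 3.52 for Ltbp1, 3.31 for Fbln5 and 2.01 for Efemp2. By group means Eln ran in the order TGFb1, TGFb1 + DMSO, DMSO, CHIR, TGFb1 + IL1b, TGFb1 + TNF, TGFb1 + CHIR, and the neighbours whose libraries overlapped were the first pair and the cytokine pair. Fbn2 ran in the order TGFb1 + CHIR, TGFb1 + DMSO, TGFb1, TGFb1 + IL1b, DMSO, CHIR, TGFb1 + TNF. Overlap was between DMSO and CHIR and between CHIR and TGFb1 + TNF, but not between DMSO and TGFb1 + TNF. Mfap4 ran in the order TGFb1 + CHIR, TGFb1, TGFb1 + DMSO, CHIR, DMSO, TGFb1 + IL1b, TGFb1 + TNF, with overlap between the TGFb1 groups with and without DMSO and, step by step, from CHIR to TGFb1 + IL1b. Fbn1 was highest in TGFb1 + DMSO, then TGFb1 + IL1b and TGFb1, which overlapped, then TGFb1 + TNF, TGFb1 + CHIR, CHIR and DMSO.

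Mfap5 ran from TGFb1 + IL1b and TGFb1, which overlapped, through TGFb1 + DMSO, TGFb1 + TNF, TGFb1 + CHIR and DMSO to CHIR. Fbln5 had 5 groups with TGFb1 whose neighbours all overlapped, from TGFb1 + TNF at 154 ± 3.67 CPM to TGFb1 + CHIR at 127 ± 7.61 CPM, then DMSO and CHIR. Ltbp1 had almost the opposite order, with CHIR and DMSO on top, then TGFb1 and TGFb1 + CHIR, which overlapped, TGFb1 + TNF and TGFb1 + DMSO, which overlapped, and TGFb1 + IL1b. Emilin1 was highest in TGFb1 and TGFb1 + DMSO, which overlapped, then TGFb1 + CHIR and TGFb1 + IL1b, which overlapped, then CHIR, DMSO and TGFb1 + TNF. Ltbp2 ran from CHIR through TGFb1 + IL1b and TGFb1, which overlapped, to TGFb1 + DMSO, DMSO, TGFb1 + TNF and TGFb1 + CHIR. Efemp2 ran from TGFb1 and DMSO, which overlapped, through TGFb1 + DMSO, TGFb1 + IL1b and TGFb1 + CHIR, of which the last pair overlapped, to CHIR and TGFb1 + TNF.

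Likeness of pattern was measured by Pearson's r over the 7 group means of log2 CPM, as a description of these groups. It takes no account of how far a gene varied. Among the 45 pairs of members, r was highest for Mfap5 with Fbln5 (0.93), Fbn1 with Mfap5 (0.92), Mfap4 with Emilin1 (0.90) and Fbn1 with Fbln5 (0.89). It was lowest for Fbln5 with Ltbp1 (-0.98). Eln was most like Ltbp2 among the members (0.76). Among 9969 other genes, those most like Eln were Dcaf17 (0.983) and Fbxo3 (0.981), both of which varied far less, with Fbxo3 between 72.7 and 93.0 CPM. The nearest genes were Sec23a (0.995) and Gopc (0.994) for Fbn1, Rnh1 (0.993) and Unc45a (0.987) for Fbn2, and Asb7 (0.993) and Ebp (0.990) for Mfap4. They were Kctd9 (0.996) and Dnmt1 (0.995) for Fbln5, Lcor (0.996) and Tmem186 (0.992) for Ltbp1, and Magi1 (0.986) and Lingo1 (0.970) for Ltbp2. They were Thbs2 (0.991) and Epm2a (0.981) for Emilin1, and Snx15 (0.985) and Gatd1 (0.984) for Efemp2. Mfap5 was most like Tubb2b (0.993) and the pseudogene Tubb2a-ps2 (0.993), whose reads may be shared with near-identical tubulin genes. The genes most like Fbn2 and Mfap4 also varied far less than those members. By group means, Rnh1 lay between 84.2 and 173 CPM, Unc45a between 36.5 and 49.4, Asb7 between 28.4 and 34.5 and Ebp between 30.4 and 72.9.

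Promoter windows of 300 bases, from 250 before to 50 after an annotated start, were available from RefSeq (GRCm38.p6) for 6 of the 10 genes, in 10 windows. Eln, Fbn2, Mfap4 and Mfap5 had no window, so their promoters were not searched. Efemp2 had several windows, and those at neighbouring starts share bases. The 4 shown are those of Fbn1 and Fbln5, whose levels had like patterns over the groups, and of Ltbp2 and Ltbp1, which moved in opposite directions with TGFb1 in DMSO and in the same direction with CHIR alone and with TGFb1 in CHIR. Each is read 5′ to 3′ on the strand of the gene, and capitals mark the letters CAGAC, the core that SMAD proteins of TGFb signalling are known to bind, on either strand (GTCTG on the other). The Fbn1 window is chr2:125506389-125506688 (minus strand), the Fbln5 window chr12:101819070-101819369 (minus), the Ltbp2 window chr12:84876442-84876741 (minus) and the Ltbp1 window chr17:75005279-75005578 (plus).
Fbn1: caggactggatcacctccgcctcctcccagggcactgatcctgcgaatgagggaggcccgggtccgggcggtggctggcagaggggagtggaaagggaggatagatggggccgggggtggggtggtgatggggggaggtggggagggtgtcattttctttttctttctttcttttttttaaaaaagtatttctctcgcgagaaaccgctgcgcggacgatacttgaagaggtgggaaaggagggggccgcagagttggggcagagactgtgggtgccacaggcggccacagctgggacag
Fbln5: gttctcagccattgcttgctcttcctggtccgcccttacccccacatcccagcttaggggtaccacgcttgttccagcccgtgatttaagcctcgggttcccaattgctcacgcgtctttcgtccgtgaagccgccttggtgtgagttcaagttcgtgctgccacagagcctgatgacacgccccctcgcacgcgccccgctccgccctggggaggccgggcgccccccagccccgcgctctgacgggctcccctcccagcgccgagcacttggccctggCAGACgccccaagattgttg
Ltbp2: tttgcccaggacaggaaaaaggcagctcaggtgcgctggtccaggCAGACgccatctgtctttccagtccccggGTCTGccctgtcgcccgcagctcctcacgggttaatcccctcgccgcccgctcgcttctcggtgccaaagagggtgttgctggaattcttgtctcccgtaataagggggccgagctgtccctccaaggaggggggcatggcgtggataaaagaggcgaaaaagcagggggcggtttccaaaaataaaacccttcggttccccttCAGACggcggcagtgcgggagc
Ltbp1: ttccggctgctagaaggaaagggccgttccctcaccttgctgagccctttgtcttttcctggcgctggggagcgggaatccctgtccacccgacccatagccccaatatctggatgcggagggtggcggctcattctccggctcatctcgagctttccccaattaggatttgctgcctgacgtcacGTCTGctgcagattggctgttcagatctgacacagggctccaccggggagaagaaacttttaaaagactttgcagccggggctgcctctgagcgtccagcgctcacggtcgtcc

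The Fbn1 window held no CAGAC, the Fbln5 and Ltbp1 windows shown 1 each and the Ltbp2 window 3. The second windows of Fbln5 and Ltbp1, at other annotated starts, held 2 each. Of the 10 windows, 7 held at least 1 CAGAC, as did 49.6% of all 32851 promoter windows of this length. On both strands, none of the 10 windows, from 6 genes, held TGANTCA, the AP-1 letters. None held CTTTGAT or CTTTGAA, used for TCF/LEF factors of the Wnt pathway. Those letters were in 7.81% and 8.65% of all windows. A match or its absence is a description of these windows only.

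For 6 members, exons overlap those of a gene on the opposite strand, and the sources used here do not say whether counting used strand. The overlap of Mfap4 with Mapk7 is 89 bp, and Mapk7 stood at 18.8 to 32.5 CPM, above the lowest Mfap4 level of 0.178 CPM. The partners of Eln (Gm30003), Fbn1 (Gm9913), Fbn2 (Gm26507), Ltbp2 (D030025P21Rik) and Efemp2 (Mus81) all had a highest level below the lowest level of the member.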

How the data were processed

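The deposited table holds raw read counts per gene made by the authors for 21 libraries. RNA was extracted with a Qiagen RNeasy kit and libraries were made with an Illumina stranded total RNA kit, per the labels' protocols. The builds GRCh38 and GRCm38 are named in the submitters' processing notes, and the sources used here do not give the aligner, the counter or the strand setting. Each single-library table equalled its column. Symbols, positions and exon lengths came from GENCODE M21.

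Genes passing filterByExpr (16197) were tested with edgeR 4.0.16 in R 4.3.3: TMM factors, 1 coefficient per group over all 21 libraries, robust quasi-likelihood F-tests, Benjamini-Hochberg adjustment over all genes tested and a threshold of 0.05. Each SE is the log2 fold change over the square root of F. CPM used TMM-scaled totals, and RPKM divided CPM by exon length in kilobases. The fit was tested on simulated data. The members and the lists were chosen with earlier results of these data known. All members were named, and from each list up to 3 genes per comparison, those with the largest absolute change among those passing whose mean was 2 log2 CPM or more. For each member, the 2 genes most like it were named. A few other list or marker genes were chosen after their values were seen.

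Alternatives were RLE size factors, no filter and a stricter filter (1 CPM in 3 libraries), a fit without mitochondrial and rRNA genes, a fit of the compared groups alone, each library left out, the other TGFb1 control, limma 3.58.1 voom and DESeq2 1.42.0.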

Additional observations from a re-analysis of the deposited data

Results flagged for a closer look

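The effect of CHIR in the presence of TGFb1 differed from its effect without TGFb1, by the interaction term of the edgeR fit, for 9 of the 10 genes. The difference in log2 fold change was -4.41 for Eln, -3.23 for Ltbp2, -1.06 for Fbn1, -0.72 for Ltbp1 and -0.71 for Emilin1. It was 3.10 for Fbn2, 0.66 for Mfap4, 0.54 for Fbln5 and 0.22 for Efemp2. Over all genes tested, 41.2% passed this test.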

How the results depend on the processing

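Counts of elastic fibre genes past the threshold were recomputed under each alternative, and 273 of 278 values stayed within 1.5 times the reported count. The count lower with TGFb1 + DMSO against DMSO was 2 in place of 1 with RLE size factors, with the stricter filter and with DESeq2, where Efemp2 passed (adjusted p = 0.0387, 0.0451 and 0.0254). With TGFb1 + DMSO as the control, 2 genes in place of 0 were higher with IL1b. Leaving out each library in turn gave 1 to 3 lower with the solvent, 3 to 4 higher and 3 to 4 lower with CHIR, 3 to 4 higher in the interaction and 7 to 8 higher for IL1b against TNF, and it left the other counts of members as they were. Of 1390 member fold changes, 1361 kept direction and side of the threshold. Those that changed direction did so only with the other TGFb1 control: Ltbp1 from 0.19 to -0.06 with CHIR and from -0.24 to 0.01 with TNF, and, from the lists, Lrrc32 from -0.31 to 0.07 and Loxl3 from -0.35 to 0.01 with IL1b. The cause was not tested. With limma voom, Fbn2 with CHIR (-0.30, adjusted p = 0.105) and the Mfap4 interaction (0.63, 0.0634) did not pass. The number of genes that passed for the solvent went from 993 to 646 without TGFb1 replicate 1. No paired analysis was possible because the replicates were numbered in record order and the library numbers in the titles are not shared between groups. Depth limits Mfap4 with TNF, at 5 to 7 counts a library.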

Other observations

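The wider lists also differed between the cytokines and with TGFb1 in CHIR. With TGFb1 + IL1b against TGFb1 + TNF, 13 of 21 microfibril and elastic fibre associated genes were higher with IL1b and 3 lower, where 24.7% of all genes tested were higher and 22.8% lower, with Fbln7 at 1.92 ± 0.13, Fbln1, a fibulin of the basement membrane and elastic fibre, at 1.43 ± 0.051 and Efemp1 at 1.39 ± 0.059 on the log2 scale. Of the 5 lysyl oxidases, 4 were higher, with Lox at 0.96 ± 0.053, and 1 lower. Of 15 proteases and inhibitors, 11 were higher and 2 lower, with Adamts5 at 2.12 ± 0.069 and Mmp9 at -3.78 ± 0.072. Itgb3 was 108 ± 1.51 CPM with IL1b and 258 ± 12.5 CPM with TNF.

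With TGFb1 + CHIR against CHIR, 8 of the 21 microfibril and elastic fibre associated genes rose and 11 fell, beside 33.8% and 32.3% of all genes tested. Efemp1 went from 1127 ± 16.0 to 5.66 ± 0.763 CPM (-7.64 ± 0.069 on the log2 scale) and Dcn from 2982 ± 149.5 to 91.8 ± 4.21 CPM (-5.02 ± 0.048). Loxl2 rose by 1.32 ± 0.038 and Loxl1 fell by 1.26. With CHIR against DMSO, 10 of 15 proteases and inhibitors rose and 4 fell, beside 22.1% and 22.7% of all genes tested. Mmp2, a gelatinase that cuts elastin, went from 1760 ± 117 to 4131 ± 109 CPM (1.23 ± 0.037). The inhibitors Timp1, Timp2 and Cst3 were also among those that rose, by 0.61 ± 0.047, 0.28 ± 0.037 and 0.20 ± 0.046. Those that fell were the proteases Adamts5 (-1.24 ± 0.054) and Cela1 (-0.42 ± 0.1) and the inhibitors Timp3 (-0.75 ± 0.089) and Serpine2 (-0.31 ± 0.053).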
